A study of Oryctolagus cuniculus with 39 samples.

Results

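The stromal vascular fraction (SVF) of 2 brown fat depots of the rabbit was compared at 3 weeks of age. The SVF is what remains of a fat depot once the fat cells have been separated off. Of the 39 samples of the series, 6 entered the comparison, 3 libraries of the SVF of interscapular brown adipose tissue (iBAT SVF) and 3 of the SVF of subscapular brown adipose tissue (sBAT SVF). All came from New Zealand White rabbits, and the labels name no treatment and no genotype. The series sampled both fractions at day 1 and at 3, 6 and 12 weeks, 24 SVF libraries in all, while brown fat regresses. Of 20589 gene identifiers, 11267 had an FPKM (a fragment count divided by transcript length and by library size) of at least 1 in at least 3 of the 6 libraries. ADORA1 and LOC100009266 were left out of the test and of the scaling. Differences are given as sBAT minus iBAT on the log2(scaled FPKM + 1) scale, which understates the change of low genes.

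Brown fat burns fuel in mitochondria that carry UCP1, a protein that lets the proton gradient run down as heat. Its SVF holds fibroblast-like progenitors that lay down collagen and give rise to new fat cells, the cells of small vessels, and resident leukocytes. Progenitors are known by PDGFRA, PI16 and DPP4, endothelium by PECAM1, and leukocytes by PTPRC.

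The sBAT libraries stood apart from the iBAT libraries in their make-up. ADORA1, the adenosine A1 receptor, had a deposited FPKM of 19959, 5679 and 55051 in iBAT and 218105, 164908 and 190869 in sBAT. LOC100009266, described as uricase, had 14692, 3247 and 43456 in iBAT and 222901, 175601 and 142855 in sBAT. Together they took 1.93% to 20.3% of the summed FPKM of the iBAT libraries and 63.9% to 80.4% of that of the sBAT libraries. Whether these levels come from the tissue or from the making of the libraries cannot be told apart in the table. Beside this, 15810 to 17143 genes were above 0 in iBAT and 12416 to 13888 in sBAT. Across genes, iBAT libraries correlated with each other at Pearson's r of 0.972 to 0.985, sBAT libraries at 0.871 to 0.898, and libraries of different depots at 0.89 to 0.941. The median SD over 3 libraries was 0.145 (log2) in iBAT and 0.366 in sBAT, and 85.8% of genes had the larger SD in sBAT. The part of the lower detection and the wider spread in the results below was not tested. The labels do not say that the libraries of a group came from separate animals, so p-values measure the spread between these libraries. In bulk samples, fewer cells of a type and less RNA per cell cannot be told apart.

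The first question was which genes differed between the stroma of the depots. With limma on the 6 libraries, 24 genes (0.213% of those tested) were called at a Benjamini-Hochberg adjusted p under 0.05, 10 higher (0.0888%) and 14 lower (0.124%) in sBAT, and 1422 genes had an unadjusted p under 0.05. With scaling to the summed FPKM the split was 35 higher and 15 lower, and without scaling 39 higher and 8732 lower, where the median of all genes lay at -1.05 against -0.05 with median ratio scaling. Leaving out any 1 of the iBAT libraries left 1, 2 and 1 calls (without replicates 1, 2 and 3), of which only PENK was among the 24. Without sBAT replicate 2 there were 9 calls, without sBAT replicate 1 there were 21, and without sBAT replicate 3 there were 138, which included all 24. Of the 14 genes called lower, 10 were listed at 0 in all 3 sBAT libraries, and with genes listed at 0 throughout a depot left out of the test, an alternative added after seeing the data, PENK alone was called.

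**Figure D1:**
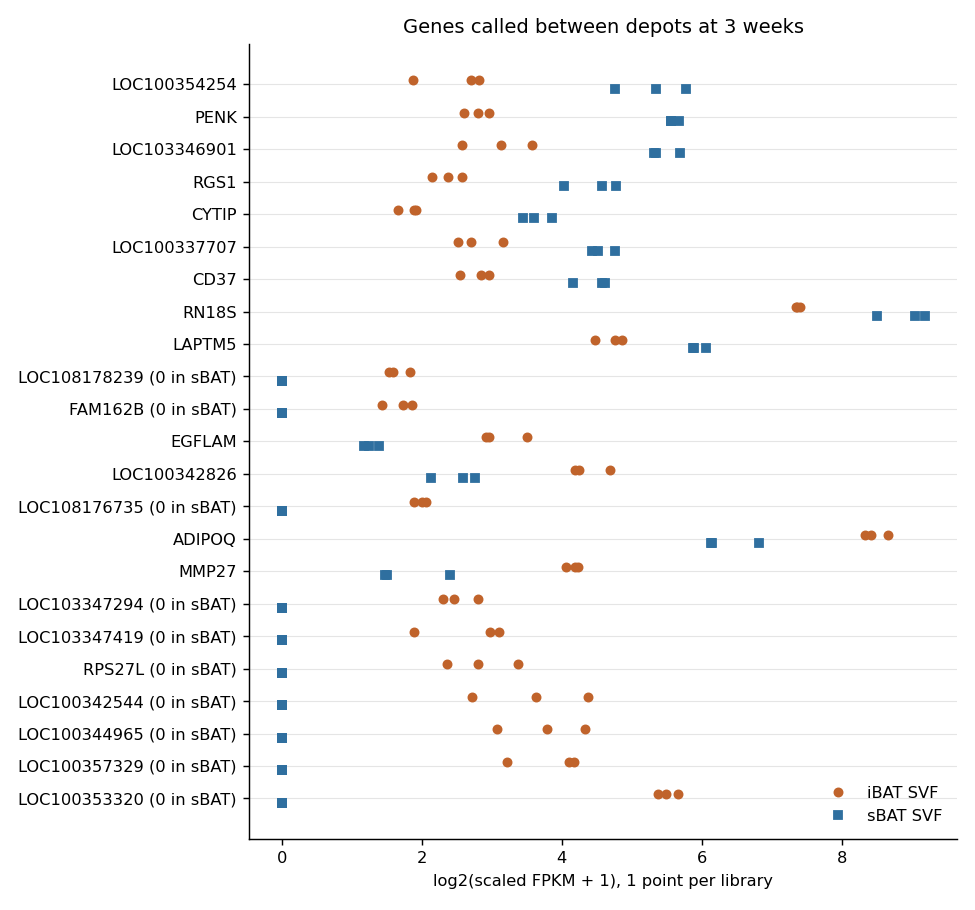
Each row is a called gene, ordered by its log2 difference, and each point is the log2(scaled FPKM + 1) of 1 library, circles for iBAT SVF and squares for sBAT SVF. In the lower 14 rows all iBAT points lie to the right of the sBAT points, and 10 of these rows have all sBAT points at 0.

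PENK encodes proenkephalin, the precursor of the opioid peptides called enkephalins. Its scaled FPKM was 5.1, 5.98 and 6.75 in the iBAT libraries and 46, 50.2 and 46 in the sBAT libraries. The 3 sBAT values sat close together and far above all iBAT values. The difference was 2.81 ± 0.16 (SE, log2), with a limma adjusted p of 0.00166. PENK was called in all 18 repeats of the test with another setting, the 6 that leave out a library included. LOC100353320 and LOC100357329 were tested in 15 of these repeats and called in all 15, and every other called gene kept its call in at most 14. Both are listed at 0 in all 3 sBAT libraries and are uncertain for the reason given below. Without 1 iBAT library they cannot pass the filter, by construction. All 24 called genes kept their calls with a minimum difference of 1 and with the 24 libraries in 1 fit. The 18 repeats do not include the alternative added after seeing the data, in which PENK alone was called.

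**Figure D2:**
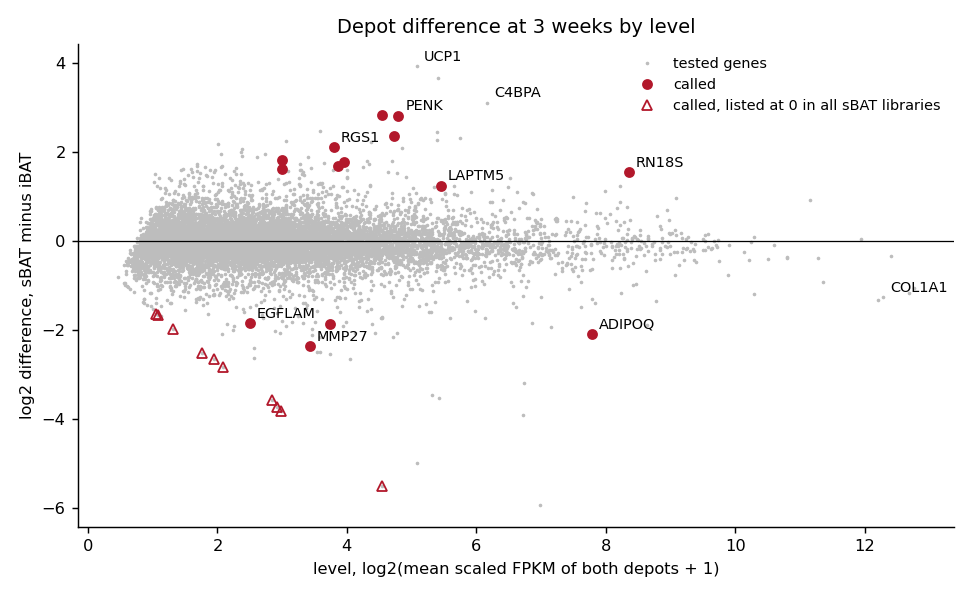
Each dot is 1 of the 11267 tested genes, placed by its level in both depots on the horizontal axis (log2) and by its sBAT minus iBAT difference on the vertical axis (log2). Filled circles are called genes and open triangles are called genes listed at 0 in all sBAT libraries, while UCP1 and C4BPA, higher on the axis than PENK, were not called.

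Of the other genes called higher in sBAT, several belong to leukocytes. RGS1, which curbs G protein signalling in lymphocytes, had a scaled FPKM of 3.43, 4.95 and 4.18 in iBAT and 22.9, 26.4 and 15.3 in sBAT (difference 2.1 ± 0.24 SE, limma adjusted p = 0.0359). CYTIP, a leukocyte protein that binds cytohesin, had 2.77, 2.69 and 2.17 in iBAT and 13.5, 9.86 and 11.1 in sBAT (1.81 ± 0.18, limma adjusted p = 0.0265). Both genes were higher in every sBAT library than in any iBAT library. CD37, a leukocyte tetraspanin, had 6.75, 6.16 and 4.86 against 23.5, 22.9 and 16.9 (1.67 ± 0.2, limma adjusted p = 0.037). LAPTM5, a lysosomal membrane protein of blood cells, had 26, 27.9 and 21.3 against 57.3, 65.7 and 58.3 (1.24 ± 0.16, limma adjusted p = 0.0462). LOC103346901, described as an IgM heavy chain VDJ region, had 10.9, 4.93 and 7.73 against 38.7, 50.3 and 39.8 (2.36 ± 0.27, limma adjusted p = 0.0359). The depots did not overlap in any of these 5 genes. RGS1, CYTIP, CD37, LAPTM5 and LOC103346901 kept their calls in 12, 13, 10, 7 and 9 of the 18 repeats with another setting. Of the 6 repeats that leave out a library, they kept them in 1, 2, 1, 1 and 1.

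PTPRC, the pan-leukocyte phosphatase CD45, lay at 4.29, 4.76 and 3.42 in iBAT and 10.8, 13 and 17.3 in sBAT, without overlap, but missed the threshold (limma adjusted p = 0.0571). Of all genes tested, 19.7% did not overlap between the depots: 8.74% had their 3 sBAT values above their 3 iBAT values and 10.9% the reverse. Among macrophage and monocyte markers, 6 of the 11 tested had all sBAT values on top and none had all iBAT values on top. None of the 11 was called, and their median difference was 0.62 beside -0.05 for all genes. CSF1R, the growth factor receptor of macrophages, measured 16.2, 18.7 and 12.7 against 34.2, 33.6 and 34.7 (limma adjusted p = 0.0767), and TYROBP, a signalling adaptor of myeloid cells, 17.7, 21.7 and 16.9 against 41.6, 54.7 and 36.8 (limma adjusted p = 0.0767). All 11 lay above the median of all genes under each of the 4 scalings, although without scaling all 11 lay below 0. The summed level of the macrophage list ran from 452 to 579 in iBAT and from 800 to 1117 in sBAT.

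The other leukocyte lists were thinly measured. Of 13 T cell markers 3 passed the filter, 4 of 12 B cell and plasma cell markers did, and of the neutrophil and dendritic cell markers 4 each. These members passed partly through the depot where they are higher, so their counts support nothing. CCR7, which guides lymphocytes and dendritic cells along lymph vessels, was at 1.21, 2.04 and 1.45 in iBAT and 10.2, 10.2 and 5.7 in sBAT (limma adjusted p = 0.0523). CD3D, a chain of the T cell receptor complex, was at 0.505, 0.572 and 0.957 against 8.06, 4.59 and 1.5 (limma adjusted p = 0.215). JCHAIN, which joins IgM and IgA units, was at 5.28, 3.88 and 7.59 against 13.2, 31.7 and 14.8 (limma adjusted p = 0.124). All 3 genes had every sBAT value above every iBAT value. The neutrophil calcium-binding protein S100A8 was at 3.35, 8.27 and 4.16 against 12.5, 69.2 and 20.9, with sBAT replicate 2 far above its group. S100A8 did not overlap between the depots either, and none of these 4 leukocyte markers passed the test. S100A9 and S100A12 of the neutrophil list and CD3G of the T cell list were tested too, and their values overlapped between the depots. CCL21, the lymph vessel chemokine that CCR7 binds, measured 15.5, 13.8 and 16.8 in iBAT and 99.7, 129 and 40.3 in sBAT (2.32 ± 0.4, limma adjusted p = 0.078). LYVE1 of the same lymphatic list overlapped between the depots, at 57.4, 53.3 and 36.6 against 43.5, 38.5 and 92.8. PDPN, also of that list, had all iBAT values on top, at 9.4, 12.5 and 4.77 against 1.96, 2.5 and 1.46 (limma adjusted p = 0.099).

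Cholesterol synthesis genes lay mostly on the sBAT side. Of the 15 members of this list tested, 13 lay above 0 and 11 had all sBAT values above all iBAT values, with a median of 0.82. Over all genes tested, 8.74% had all sBAT values on top. Counted against the median of all genes, 13 of 15 lay above it under each of the 4 scalings, though without scaling 14 of 15 lay below 0. FDPS, which makes farnesyl diphosphate, had 2.57, 2.54 and 2.95 against 6.1, 5.78 and 5.67 (limma adjusted p = 0.0893). INSIG1, the sterol sensor that holds back SREBP, had 10.1, 6.56 and 8.83 against 17, 11.8 and 25.1 (limma adjusted p = 0.243). SREBF2, the transcription factor of this pathway, had 5.41, 4.93 and 5.63 against 9.39, 14.1 and 8.63 (limma adjusted p = 0.155). HMGCS1, an early enzyme, did not follow, at 8.88, 8.45 and 6.39 against 3.75, 6.69 and 12.4.

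UCP1 itself had the largest of the values that missed the threshold among the marker genes. Its scaled FPKM was 4.37, 0.333 and 7.71 in iBAT and 81, 41.5 and 61.8 in sBAT. The lowest sBAT value was above the highest iBAT value, and the iBAT libraries differed widely among themselves, with replicate 2 near 0. The difference was 3.93 ± 0.65 (SE), with a limma adjusted p of 0.0767. COX7A1, a cytochrome oxidase subunit of heat-producing fat and muscle, had 7.77, 4.87 and 13.6 against 29.9, 21.8 and 38.1 (limma adjusted p = 0.109). CPT1B, which brings fatty acids into mitochondria, had 3.24, 1.94 and 2.45 against 6.65, 4.46 and 4.77 (limma adjusted p = 0.198). LOC100354254, described as like the brown fat subunit COX8B, was called, with 5.52, 2.66 and 6.04 against 53.7, 39.7 and 26 (2.83 ± 0.34, limma adjusted p = 0.0386). CIDEA, a lipid droplet protein of brown fat cells, did not share this pattern, at 68.9, 29.7 and 25.2 against 33.7, 36.6 and 43.9.

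Of the 12 thermogenic markers, 7 were tested, and 5 of them had all sBAT values on top. DIO2, the enzyme that activates thyroid hormone, stayed below the filter, at 0.0639, 0.0189 and 0.187 in iBAT and 0.719, 0.309 and 1.19 in sBAT. PPARGC1A, the coactivator that drives mitochondrial growth, was at 0.166, 0.151 and 0.241 against 0.218, 0.0902 and 0.504. KCNK3 passed the filter through its sBAT values alone, so the count of this list supports nothing. In the 2 lists of mitochondrial genes no member was called, while identifiers outside them were called in both directions (LOC100354254 above, and 4 described below with other identifiers of the same description). Of 21 oxidative phosphorylation genes 12 had all sBAT values on top and none the reverse, with a median of 0.44. These 12 include COX7B and CYCS, whose values are uncertain for the reason given below. Of 15 fatty acid oxidation genes 8 had all sBAT values on top and none the reverse, with a median of 0.68. Over all genes tested, 8.74% had all sBAT values on top. Above the median of all genes lay 20 of the 21 and 14 of the 15 with median ratio scaling, and 16 and 13 without scaling, where 20 and 12 of them lay below 0.

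UQCRFS1, the iron-sulfur subunit of complex III, had 30.8, 24.6 and 32.4 in iBAT and 79.1, 68.5 and 62.2 in sBAT (1.23 ± 0.17, limma adjusted p = 0.053). COX5A, a subunit of complex IV, had 42.7, 41.9 and 48.3 against 151, 99.7 and 63.1 (limma adjusted p = 0.184). ACADL, which starts the oxidation of long fatty acids, had 51.6, 30.8 and 63.3 against 176, 70.5 and 154 (limma adjusted p = 0.216). Skeletal muscle, another tissue rich in these genes, was unevenly present in the sBAT libraries: the summed level of its markers was 184 to 302 in iBAT and 140 to 2070 in sBAT. ACTA1, muscle actin, was at 129, 90.6 and 171 in iBAT and at 77.8, 979 and 74.3 in sBAT. ACTA1 was high in sBAT replicate 2 alone, and its difference of 0.5 became -0.73 without that library. The part of muscle RNA in the values of the mitochondrial genes was not tested.

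**Figure D3:**
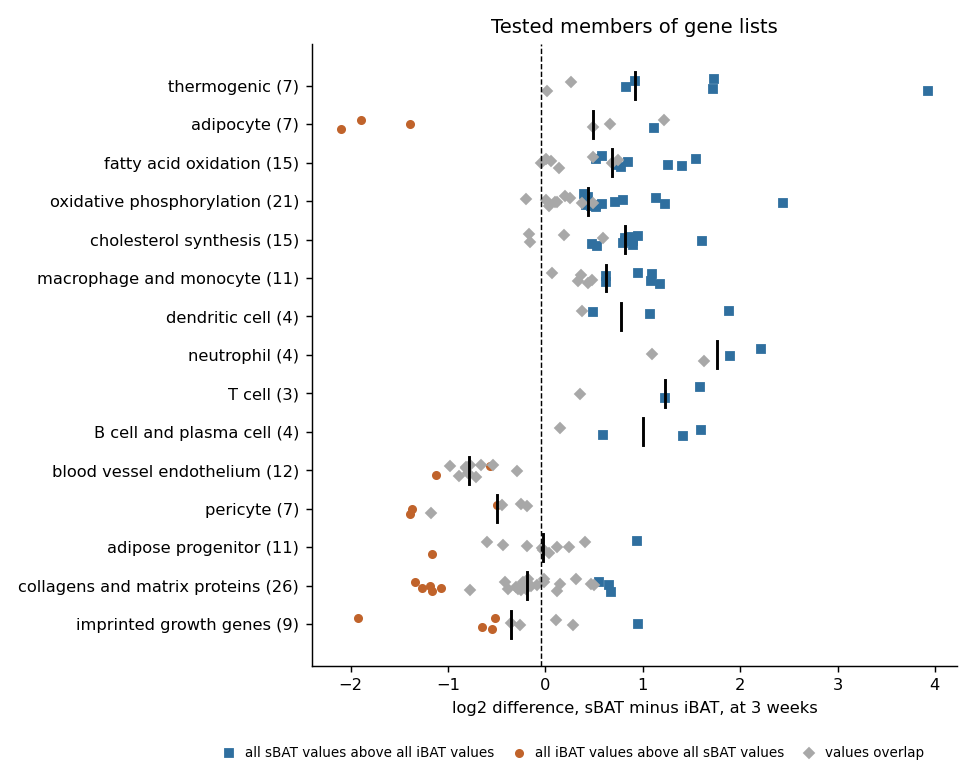
Each point is a tested member of a gene list (number of members in brackets) at its sBAT minus iBAT log2 difference at 3 weeks, with the list's median as a black bar and the median of all genes, -0.05, as a dashed line. Squares and circles mark genes whose depots do not overlap, diamonds those that do, and all 12 endothelial members and all 11 macrophage members lie on opposite sides of 0.

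ADIPOQ, the fat cell hormone adiponectin, was the most abundant gene called lower in sBAT. Its scaled FPKM was 320, 339 and 404 in iBAT and 112, 70 and 68.9 in sBAT. All iBAT values lay above all sBAT values, and the difference was -2.1 ± 0.22 (SE, limma adjusted p = 0.0315). The call held in 13 of the 18 repeats with another setting, but in only 2 of the 6 among them that leave out a library. CD36, a fatty acid transporter of fat cells and capillaries, had 540, 527 and 774 against 256, 80.9 and 205 (limma adjusted p = 0.122), and LEP, the hormone leptin, had 3.37, 1.36 and 1.34 against 0, 0 and 0.331 (limma adjusted p = 0.123). GPD1, which makes the glycerol backbone of fat, lay the other way, at 7.54, 4.59 and 8.77 against 25.3, 11.5 and 13.2 (limma adjusted p = 0.245). The 7 adipocyte markers tested split into 4 above 0 and 3 below, with a median of 0.49. LEP passed the filter through its iBAT values alone, so this count supports nothing. The sum of the list, most of it ADIPOQ and CD36, was 891 to 1241 in iBAT and 210 to 497 in sBAT. Fat cell transcripts were therefore present in both fractions, whose labels name the stroma. PPARG, the master factor of fat cell formation, was at 33.1, 25.7 and 33.8 in iBAT and 25.3, 12 and 24.7 in sBAT (limma adjusted p = 0.461).

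Progenitor markers were abundant in both fractions, and none of those tested was called. PDGFRA was at 20.4, 22.8 and 15.9 in iBAT and 17.3, 32.9 and 21.6 in sBAT, and CD34, a surface protein of progenitors and endothelium, was at 248, 272 and 209 against 209, 288 and 214. PI16, a marker of the most immature progenitors, was at 340, 603 and 320 against 179, 209 and 153 (-1.17 ± 0.27, limma adjusted p = 0.131). DPP4, often found on the same cells, was at 32.5, 27.2 and 17.5 against 36.1, 47.3 and 67.8 (0.94 ± 0.3, limma adjusted p = 0.264). PI16 and DPP4 thus separated the depots in opposite directions without passing the test. Of the 11 progenitor markers tested, 5 lay above 0 and 6 below, with a median of -0.03. MKI67, a marker of dividing cells, was near 1 in all libraries, at 0.575, 0.842 and 1.32 against 1.68, 1.04 and 1.42.

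Secreted matrix genes were among the most abundant of the stroma. COL1A1, a chain of type I collagen, had a scaled FPKM of 7014, 8226 and 5808 in iBAT and 2401, 3694 and 2672 in sBAT (-1.27 ± 0.23, limma adjusted p = 0.0893). SPARC, a collagen-binding protein, had 9698, 9989 and 7710 against 3228, 4566 and 4431 (-1.17 ± 0.21, limma adjusted p = 0.0893). LOX, the enzyme that crosslinks collagen, had 63.4, 62.5 and 45 against 12.2, 19.2 and 24.5 (-1.6 ± 0.27, limma adjusted p = 0.078). COL1A2, COL3A1 and POSTN also had all iBAT values on top. FN1, fibronectin, lay the other way, at 404, 384 and 288 against 405, 587 and 599. Of 26 collagens and matrix proteins tested none was called, 5 had all iBAT values on top and 3 all sBAT values, and the median was -0.19. Over all genes tested, 10.9% had all iBAT values on top and 8.74% all sBAT values. Against the median of all genes 16 of the 26 lay below it with 3 of the scalings and 20 without scaling.

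MMP27, a little-studied matrix metalloproteinase, was called lower in sBAT. It measured 17.2, 17.8 and 15.7 in iBAT and 4.27, 1.83 and 1.79 in sBAT (-2.37 ± 0.27, limma adjusted p = 0.0359). EGFLAM, the matrix protein pikachurin, measured 6.59, 6.78 and 10.3 against 1.61, 1.37 and 1.26 (-1.86 ± 0.22, limma adjusted p = 0.036). Neither gene overlapped between the depots, and they kept their calls in 11 and 10 of the 18 repeats with another setting. Of the 6 repeats that leave out a library, they kept them in 2 and 1. DLK1, an imprinted inhibitor of fat cell formation, measured 160, 310 and 200 against 70.9, 73.6 and 32.7, without overlap and without a call (-1.93 ± 0.37, limma adjusted p = 0.0932).

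Vessel cell markers lay on the iBAT side without any call. All 12 endothelial markers were below 0 under each of the 4 scalings, with a median of -0.79, but only ESAM and ERG had all iBAT values on top. Over all genes tested, 10.9% had all iBAT values on top. PECAM1 was at 65.3, 60.8 and 108 in iBAT and 65.4, 38 and 26.1 in sBAT, so that sBAT replicate 1 lay within the iBAT range (limma adjusted p = 0.373). All 7 pericyte markers tested were likewise below 0, with a median of -0.5, and RGS5, a pericyte regulator of G protein signalling, was at 56.3, 34.8 and 84.9 against 29.1, 13.8 and 21.8 (limma adjusted p = 0.2). The smooth muscle actin ACTA2 overlapped, at 53.6, 30 and 72.7 against 57.4, 23.6 and 14.5.

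Genes of body position differ between depots in many tissues. Of 30 such genes tested none was called, and 14 lay above 0 and 16 below. All sBAT values were on top in 3 of the 30 and all iBAT values in 4, beside 8.74% and 10.9% of all genes tested. TBX15, a T-box factor of brown fat and muscle precursors, was at 16.1, 20 and 14.8 in iBAT and 10.2, 12.1 and 11.4 in sBAT (-0.55 ± 0.17, limma adjusted p = 0.261). HOXC8, a marker of trunk position, was at 1.56, 2.04 and 1.32 in iBAT and was listed at 0 in all 3 sBAT libraries (limma adjusted p = 0.0687). HOXB6 was at 1.57, 2.4 and 3.67 against 0.697, 0.296 and 0 (limma adjusted p = 0.122). HOXC8 and HOXB6 passed the filter through their iBAT values alone, so the counts of this list support nothing. TBX1, another T-box factor, lay the other way with overlap, at 0.396, 0.157 and 0.856 against 3.62, 6.69 and 0.676 (limma adjusted p = 0.328). HOXA5 was not analysed here.

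Several other lists lay close to the median of all genes. Of 20 cell cycle genes tested none separated the depots, with a median of -0.04. The 28 cytosolic ribosomal protein genes had a median of -0.11. The 20 immediate early and heat shock genes, which the digestion of tissue is known to induce, had a median of 0.12, and FOS was at 672, 702 and 754 in iBAT and 694, 561 and 553 in sBAT. Among 15 chemokines and cytokines tested, 4 had all sBAT values on top and 3 all iBAT values, beside 8.74% and 10.9% of all genes tested. IL6, an inflammatory cytokine that fibroblasts also secrete, was on the iBAT side at 43.7, 74.7 and 43.3 against 20.4, 15.9 and 20.8 (-1.42 ± 0.25, limma adjusted p = 0.0783). OSM, a related cytokine of leukocytes, was on the sBAT side at 1.18, 1.14 and 1.43 against 8.44, 8.28 and 2.82 (1.63 ± 0.36, limma adjusted p = 0.122).

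The 10 called genes that were listed at 0 throughout sBAT included several that share their description with another identifier in the table. They were LOC100353320, LOC100357329, LOC100344965, LOC100342544, RPS27L, LOC103347294, LOC103347419, LOC108176735, LOC108178239 and FAM162B. In all, 26 genes were listed at 0 in every sBAT library with an FPKM of at least 1 in every iBAT library, and 0 genes the other way round. An entry of 0 in a table of FPKM can be a failed estimate, and the products of some of these genes are needed by every cell, so no fold is given for them. LOC100353320, described as cytochrome c oxidase subunit 7B, was at 40.5, 49.6 and 43.7 in iBAT. The gene COX7B, which carries the same description, was at 19.8, 8.84 and 8.83 in iBAT and at 63.9, 50.5 and 94.5 in sBAT. Added together they came to 60.2, 58.4 and 52.5 in iBAT and 63.9, 50.5 and 94.5 in sBAT, so the sums of the depots overlapped while the split between the identifiers did not.

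The same held for CHCHD2, a small mitochondrial protein. LOC100342544, with that description, was at 19.8, 11.4 and 5.59 in iBAT, and the sum with CHCHD2 was 65.9, 62 and 66 in iBAT and 81.6, 62.3 and 57.2 in sBAT. For cytochrome c, the electron carrier of the respiratory chain, LOC100357329 was at 8.29, 16.2 and 17 in iBAT. The 6 identifiers of that description summed to 89.9, 87.8 and 73.6 in iBAT and to 99.4, 90.8 and 151 in sBAT, where the lowest sBAT sum was just above the highest iBAT sum. For coupling factor 6 of the ATP synthase the sum of ATP5J and LOC100344965 stayed lower in sBAT, at 104, 101 and 108 against 52, 81.4 and 88.6. How the deposited values divide fragments between such identifiers is not given in the sources used here, so COX7B, CYCS and these 4 identifiers are uncertain. The sums were formed after the values were seen.

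**Figure D4:**
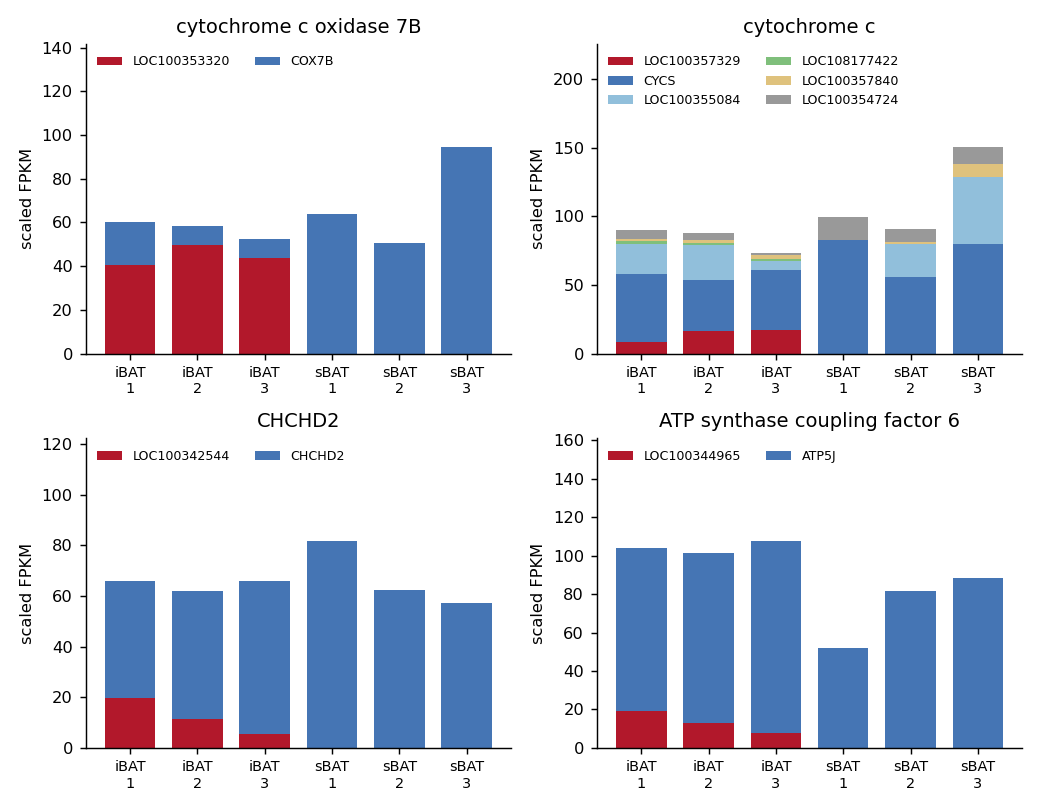
Stacked bars give the scaled FPKM of identifiers with the same description in each of the 6 libraries, with the called identifier at the bottom in red. The red part is missing from all sBAT bars, while the full bars overlap between depots for cytochrome c oxidase 7B and CHCHD2.

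Other called genes were RN18S, LOC100337707 and LOC100342826. The row with the symbol RN18S, which stands for 18S ribosomal RNA but carries the description of a CDH1-D fragment, is uncertain in its identity and measured 163, 162 and 167 in iBAT and 582, 362 and 527 in sBAT (1.54 ± 0.2, limma adjusted p = 0.0472). LOC100337707, described as like the sulfotransferase SULT1C4, measured 7.9, 5.51 and 4.72 against 20.6, 21.9 and 26.1 (1.78 ± 0.21, limma adjusted p = 0.037). LOC100342826 measured 17.3, 17.9 and 24.7 against 5.78, 5 and 3.37 (-1.88 ± 0.23, limma adjusted p = 0.0408).

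Whether a depot difference was particular to 3 weeks was asked with all 24 SVF libraries, by testing the difference at 3 weeks minus its mean over day 1, 6 weeks and 12 weeks. limma called 145 genes (1.29% of those tested), 65 with a more positive difference at 3 weeks (0.577%) and 80 with a more negative one (0.71%). This fit shares its spread over the 24 libraries, which could be too small for the sBAT libraries of 3 weeks. Of the 24 genes called at 3 weeks, 10 were among them, and PENK was not (2.34 ± 0.66, limma adjusted p = 0.0807). Of these 10, only ADIPOQ, EGFLAM and RN18S were above 0 in any sBAT library of 3 weeks. Without iBAT replicates 1, 2 and 3 of 3 weeks the count was 5, 26 and 7, and without sBAT replicates 1, 2 and 3 it was 239, 376 and 1330. ADIPOQ was called here, with a difference of -2.1 at 3 weeks and of -0.65, -0.45 and 0.92 at day 1, 6 and 12 weeks. C4BPA, which restrains the complement cascade, was called as well. At 3 weeks it measured 6.99, 30 and 11.5 in iBAT and 98.9, 159 and 120 in sBAT, a difference of 3.1 beside 1.44 at day 1, 1.7 at 6 weeks and -0.97 at 12 weeks. In the 6 libraries of 3 weeks alone C4BPA was not called (limma adjusted p = 0.0653). In the 6 libraries of 6 weeks it was called (limma adjusted p = 0.0374). SREBF1, the factor that drives fatty acid synthesis, measured 6.41, 5.52 and 6.03 against 20, 16.9 and 11.6, a difference of 1.27 beside -0.07, 0.2 and 0.02 at the other ages. PLAUR, the urokinase receptor, measured 6.07, 6.82 and 4.68 against 12.9, 19.5 and 11.1, a difference of 1.15 beside 0.88, -1.66 and -1.22.

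On the negative side of this test stood SNCG, gamma-synuclein, which fat cells also make. At 3 weeks it measured 33.5, 19.5 and 28.6 in iBAT and 8.24, 4.39 and 4.6 in sBAT, a difference of -2.08 beside -0.27, 0.64 and 0.71 at the other ages. HBZ, an embryonic globin, measured 109, 64.9 and 105 against 21.6, 43 and 28.1. Its difference of -1.57 at 3 weeks was not called in the 6 libraries (limma adjusted p = 0.0932). At day 1 and 6 weeks the difference of HBZ had the opposite sign, at 1.07 and 3.07. Of the other genes with the largest negative values, 1 of the identifiers of EEF1G, an elongation factor of translation, measured 44.5, 80.7 and 66.6 against 0, 6.66 and 0, while the 2 identifiers of that name together measured 316, 412 and 358 against 294, 277 and 296. RPL21, a ribosomal protein, measured 17.1, 25.8 and 19 against 0, 6.24 and 5.82, and its 4 identifiers together 553, 640 and 536 against 434, 394 and 705. Both are again uncertain in the division between identifiers. SLC2A4RG, a regulator of the insulin-dependent glucose transporter gene, was on the positive side, at 5.1, 7.37 and 5.44 against 11.7, 15.4 and 9.45.

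The same comparison in the 6 libraries of each other age gave 2 calls at day 1 (0.0167%), 110 at 6 weeks (0.926%) and 987 at 12 weeks (8.11%). These libraries are separate from those of 3 weeks. The counts of same signs that follow have no share over all genes beside them, so they show no more than the signs. Of the 24 genes called at 3 weeks, 18 of the 23 tested had the same sign at day 1, 18 of 24 at 6 weeks and 18 of 23 at 12 weeks. Called in the same direction as well were 0, 0 and 6, the last being 25% of the genes called at 3 weeks and 0.608% of those called at 12 weeks. RGS1, CYTIP, CD37 and MMP27 were among these 6, with differences of 2.39, 1.61, 0.93 and -4.12 at 12 weeks. PENK had a difference of 0.02 at day 1, 1.69 at 6 weeks and -0.15 at 12 weeks. At 12 weeks it measured 164, 52.1 and 116 in iBAT and 75.4, 82.6 and 116 in sBAT, so the depots overlapped. Values are scaled within each age, and levels are not compared between ages.

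**Figure D5:**
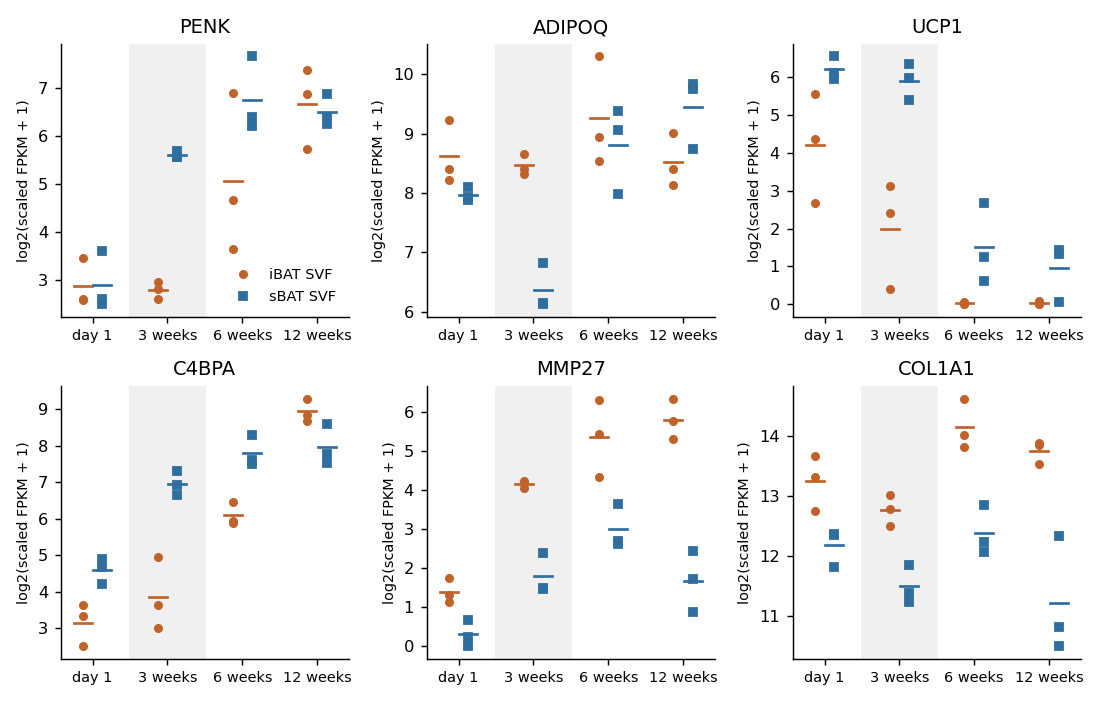
Points are the log2(scaled FPKM + 1) of single libraries at each age, circles for iBAT SVF and squares for sBAT SVF, with bars at the group means, 3 weeks shaded, and values scaled within each age. PENK separates the depots at 3 weeks and overlaps at the 3 other ages, while MMP27 and COL1A1 lie lower in sBAT at all 4 ages.

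The list of collagens and matrix proteins had median differences of -0.17, -0.19, -0.5 and -0.62 at day 1 and 3, 6 and 12 weeks. Within it COL1A1 had differences of -1.07, -1.27, -1.77 and -2.54 and FN1 of 0.09, 0.55, 0.25 and 0.27. LOX, of the list of matrix remodelling enzymes, had -0.21, -1.6, -1.97 and -2.37. The endothelial list had medians of -0.11, -0.79, -0.15 and 0.79, beside medians of all genes between -0.05 and 0. The macrophage list had medians of 0.58, 0.62, 0.84 and -0.09, and the cholesterol synthesis list of 0.04, 0.82, 0.55 and 0.2. UCP1 had a difference of 2.01 ± 0.64 at day 1 (limma adjusted p = 0.276), and at 6 and 12 weeks it did not pass the filter, with at most 0.0529 in any iBAT library and 0.0499 to 5.45 in the sBAT libraries.

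With the spread estimated from all 24 SVF libraries, the difference at 3 weeks was called for 904 genes (8.02%), 452 in each direction (4.01%), the 24 genes included. A spread shared with the other ages could be too small for the sBAT libraries of 3 weeks, whose median SD was 0.366 beside 0.145 in iBAT. Genes that passed only in this fit are therefore not counted as called. UCP1, COL1A1, SPARC, LOX, DLK1, PI16, DPP4, PTPRC, CSF1R, TYROBP, CCR7, CCL21 and UQCRFS1 passed in that fit, and PECAM1, CD34, PDGFRA and PPARG did not. Of the lists, 9 of 15 cholesterol synthesis genes, 8 of 21 oxidative phosphorylation genes, 8 of 15 fatty acid oxidation genes and 3 of 11 macrophage markers passed in the direction of higher in sBAT, and 4 of 26 matrix genes in that of lower.

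ADORA1 and LOC100009266 followed each other closely, with Pearson's r of 0.994 over the 24 libraries on log2(deposited FPKM + 1). Next after them came KCNK3, a potassium channel of brown fat (0.777 with ADORA1), PPP1R1B, an inhibitor of protein phosphatase (0.773 with ADORA1 and 0.812 with LOC100009266), and BHMT2, a methyltransferase (0.812 with LOC100009266). These values are descriptions over libraries that share depot and age. KCNK3 had a deposited FPKM of 0.64, 0.04 and 0.83 in iBAT and 3.82, 1.79 and 1.22 in sBAT at 3 weeks. Among the 10 tested genes of adenosine receptors and signalling none was called, with a median of 0.01, and among the 9 of uric acid and purine handling none was called, with a median of -0.11.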

How the data were processed

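Gene expression was measured by RNA-seq in the SVF of both depots. The authors deposited 1 table of FPKM for the 24 SVF libraries, whose 24 columns were each matched to a group and replicate by name. FPKM is the unit of the deposited values per the file headers, the build is OryCun2.0 and the tools HISAT2 2.0.4 and Bowtie2 2.2.5 per the submitters' processing notes, and read counts and depth are not known here. FPKM shares out the fragments of a library, so an abundant gene lowers all others. For that reason ADORA1 and LOC100009266 were left out and libraries were scaled by median ratios over genes above 0 in all 6 libraries. Symbols came from the table and, for 595 placeholders, from a RefSeq gene table of another assembly that matched 17693 identifiers (85.9%), so no coordinates are given.

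limma 3.58.1 in R 4.3.3 was fitted to log2(scaled FPKM + 1) with a variance trend, two-sided, with Benjamini-Hochberg adjustment over all genes tested and a threshold of 0.05, and the fit was tested on simulated data. The members, the 48 gene lists (23 of cell type markers) and the tests were chosen with earlier results of these data known. Genes were named as the 12 largest called differences per direction with a mean of at least 10 and no overlap, up to 4 called or the 3 most abundant genes of a list, a set of defining genes, the 5 largest per direction against the other ages, and the 3 most like ADORA1 and LOC100009266. Other called genes and other list members were named after their values were seen. 1 called gene is not reported by name or drawn in the plot of called genes. Alternatives were a pseudocount of 0.1, other filters and scalings, the 24 libraries in 1 fit, no trend, array weights, a replicate block, a minimum difference of 1 and leaving out each library. The 12 libraries of whole interscapular tissue and the 3 single-cell samples were not analysed here.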

Additional observations from a re-analysis of the deposited data

Results flagged for a closer look

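For 21 of the genes named above, the depot difference at 3 weeks departed from the mean difference at the other ages (limma on 24 libraries, adjusted p under 0.05). The spread of that fit could be too small for the sBAT libraries of 3 weeks. The departures are given as log2 values. Of genes with a more positive difference at 3 weeks, it was 2.4 for C4BPA, 1.84 for PLAUR, 1.46 for RN18S, 1.35 for SLC2A4RG, 1.25 for SREBF1, 0.85 for UQCRFS1 and 0.73 for FDPS. Of genes with a more negative difference, it was -2.51 for SNCG, -2.16 for LEP, -2.12 for EGFLAM, -2.06 for ADIPOQ and -3.17 for HBZ. For genes listed at 0 in sBAT libraries the fitted value depends on the pseudocount and is no fold: it was -5.79 for LOC100353320, -4.58 for EEF1G, -3.9 for LOC100344965, -3.82 for LOC100342544, -3.59 for RPS27L, -3 for LOC103347419, -2.76 for RPL21, -1.81 for LOC108178239 and -1.78 for FAM162B.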

How the results depend on the processing

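The count of 24 genes called at 3 weeks became 12 with a pseudocount of 0.1, 42 without a filter, 50 with scaling to the summed FPKM, 8771 without scaling, 904 with all 24 libraries in 1 fit and 1 with genes listed at 0 throughout a depot left out (added after seeing the data). It ranged from 1 to 138 when 1 library was left out. The replicate block left 4 calls. Replicate numbers did not pair the depots (correlations of deviations of -0.2, 0.19 and -0.26). The other 6 alternatives gave 19 to 31 calls. The count of 145 genes that departed from the other ages became 73 with a filter at an FPKM of 5, 232 without a filter, 9712 without scaling and 36 with the replicate block, and ranged from 5 to 1330 without 1 library. A pseudocount of 0.1 gave 102 and upper quartile scaling 140. Of the named genes, 19 took the other sign at 3 weeks without scaling: ACTA1 (-0.75), CHCHD2 (-0.9), CIDEA (-1.21), COX5A (-0.11), CPT1B (-0.16), CSF1R (-0.13), CYCS (-0.53), DPP4 (-0.28), FDPS (-0.1), FN1 (-0.71), GPD1 (-0.04), INSIG1 (-0.21), LYVE1 (-1.08), MKI67 (-0.33), PDGFRA (-0.96), SLC2A4RG (-0.21), SREBF2 (-0.24), TYROBP (-0.03) and UQCRFS1 (rounding to 0). Against the other ages UQCRFS1 (-0.54), SREBF1 (-0.09) and FDPS (-0.47) did. CIDEA also did with upper quartile scaling (-0.01) and array weights (-0.27), LYVE1 with array weights (-0.11), and CD34 with scaling to the summed FPKM (0.12). With 1 library left out, signs turned within ranges of -0.73 to 1.11 for ACTA1, -0.25 to 0.45 for CIDEA, -0.57 to 0.18 for HMGCS1, -0.25 to 0.38 for LYVE1, -0.02 to 0.42 for PDGFRA and -0.2 to 0.04 for CD34. None of these 6 genes was called. With 1 iBAT library left out, genes listed at 0 in all sBAT libraries cannot pass the filter, by construction. Other causes were not tested. Depth is unknown, so no floor can be set for a value listed at 0.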
